A study of Mus musculus with 15 samples.

Results

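The 10 apolipoprotein genes Apoa1, Apoa2, Apoa4, Apoa5, Apob, Apoc1, Apoc2, Apoc3, Apoe and Apom were followed through liver RNA sequencing of male C57BL/6J mice. They were identified by gene symbol, from a list chosen with earlier results of these data known. Each was found among the 26839 genes of the joined count tables. All 10 passed the filter on low counts in every comparison. The 15 libraries formed 5 groups of 3, and every mouse had received an adeno-associated virus of serotype 8 (AAV8). Chow GFP mice ate standard chow for 16 weeks and carried green fluorescent protein (GFP) under TBG, the liver-specific promoter of thyroxine binding globulin. NASH GFP mice carried the same vector and were kept for 16 weeks on sugar water and the FPC diet, used to produce non-alcoholic steatohepatitis (NASH). NASH Activin A mice had the same diet and expressed Activin A, a secreted TGF-beta family ligand, from the TBG promoter. NASH scramble and NASH Gpnmb hairpin mice had the same diet and carried a short hairpin RNA under the H1 promoter, which is not restricted to one cell type, with a scrambled sequence or one against Gpnmb, a transmembrane glycoprotein gene of macrophages and other cells. The labels give no age, and they do not say whether each library is its own mouse. The p-values therefore measure only the spread between libraries, some of which may be technical.

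Apolipoproteins are the protein coat of the particles that carry triglyceride and cholesterol in blood. Apob is the structural protein of very low density lipoprotein (VLDL), onto which the liver loads triglyceride before secretion, and Apoa1 and Apoa2 are the main proteins of high density lipoprotein (HDL). The small C apolipoproteins and Apoa5 govern how fast lipoprotein lipase removes triglyceride, Apoe directs remnant particles to hepatic receptors, and Apom carries sphingosine 1-phosphate on HDL. Apoa4 is made mainly by the intestine, and in mice also by the fasted or fat-laden liver.

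On GRCm38, 4 members lie in 43.34 kb of chromosome 9: Apoa1 (chr9:46228580-46230466, plus strand), Apoc3 (chr9:46232933-46235636, minus strand), Apoa4 (chr9:46240696-46243459, plus strand) and Apoa5 (chr9:46268633-46271919, plus strand). Another 3 lie in 27.61 kb of chromosome 7, all on the minus strand: Apoc2 (chr7:19671579-19677941), Apoc1 (chr7:19689481-19692660) and Apoe (chr7:19696109-19699188). Apoa2 (chr1:171225054-171226379), Apob (chr12:7977648-8016835) and Apom (chr17:35128997-35132050) stand alone. Sequences just before the start are shown for Apoa4, Apoa5, Apob and Apoe, 4 of the 5 members that changed in at least 1 comparison. They come from RefSeq (GRCm38.p6), which matched 8 of 10 members. Each is written in the direction of the gene, without any base of the annotated gene. Apom, the other changed member, is not shown because too few of the bases before its RefSeq start lay outside the annotated gene. Capitals mark a match to 1 of 5 motifs, searched on both strands of the 250 bases before the RefSeq start. The motifs can share end bases, but no 2 of the 6 matches in the members' windows overlapped. The motif for the nuclear receptor HNF4 was CAAAGTNCA. The half-site shared by many nuclear receptors was AGGTCA. The core of the cAMP response element was TGACGT. The palindromic E-box bound by helix-loop-helix proteins was CACGTG. The TATA box that positions the start of transcription was TATAAA.
Apoa4 (chr9:46240594-46240695): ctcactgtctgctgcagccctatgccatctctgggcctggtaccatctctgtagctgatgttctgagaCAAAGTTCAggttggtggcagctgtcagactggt
Apoa5 (chr9:46268358-46268607): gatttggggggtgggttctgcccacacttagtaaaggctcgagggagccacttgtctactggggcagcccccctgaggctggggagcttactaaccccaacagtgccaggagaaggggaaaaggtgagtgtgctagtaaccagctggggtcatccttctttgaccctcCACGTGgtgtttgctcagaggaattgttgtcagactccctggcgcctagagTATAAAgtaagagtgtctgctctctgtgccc
Apob (chr12:7977427-7977647): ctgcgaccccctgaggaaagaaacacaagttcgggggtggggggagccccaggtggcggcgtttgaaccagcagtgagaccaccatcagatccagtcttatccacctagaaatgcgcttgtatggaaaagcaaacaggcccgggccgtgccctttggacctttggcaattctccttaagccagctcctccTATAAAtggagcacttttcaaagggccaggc
Apoe (chr7:19699189-19699438, minus strand): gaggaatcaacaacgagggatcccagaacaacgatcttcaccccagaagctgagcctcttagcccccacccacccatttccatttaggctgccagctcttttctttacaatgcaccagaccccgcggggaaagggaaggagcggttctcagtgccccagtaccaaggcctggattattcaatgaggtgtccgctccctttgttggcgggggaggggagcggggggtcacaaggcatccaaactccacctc
Apoa4 held CAAAGTTCA at -182 to -174 from its RefSeq start, a motif found in 1.21% of 27025 promoter windows of that length. Apoa5 held CACGTG at -82 to -77 (6.05% of windows) and TATAAA at -31 to -26 (13.0% of windows), and Apob held TATAAA at -60 to -55. All positions count from the RefSeq start. Of the bases before it, 148 for Apoa4 and 29 for Apob lay inside the annotated gene and are not printed. None of the 5 motifs was found in the Apoe window. The nuclear receptor half-site was found in 13.8% of windows and the cAMP element core in 6.56%. A match is a description of letters and not a binding site.

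Libraries held 15276879 to 23467867 counts. Gpnmb stood between 24.9 and 40.4 CPM (counts per 1000000, scaled with TMM factors over all 15 libraries) in NASH GFP, between 26.2 and 36.4 CPM in scramble and between 1.26 and 3.30 CPM in hairpin libraries. It was low in the Activin A libraries too (2.98 to 5.67 CPM) and lowest in chow (0.15 to 0.48 CPM). Hepatocyte markers defined the tissue: 9 of 10 listed genes were found, and their summed level was 58270 CPM or more in every library. Of 10 intestinal epithelium markers 6 were found, and Alpi, Cdx1, Cdx2 and Sis had no entry among the counted genes. Lct had 0 counts in 12 libraries, Muc2 in 7 and Vil1 in 2. Fabp2, Lgals4 and Slc5a1 had counts in every library (41461, 7261 and 776 over all 15). The summed level of the 6 ranged from 48.4 to 103 CPM in chow and from 161 to 209 CPM in NASH GFP. Chow library 3 stood apart by gene length. Against its group mean, the median log2 level of its genes under 1000 bases was 0.33 higher, and that of its genes over 8000 bases was -0.18. It was the highest chow library for 8 of 10 members and the lowest for Apob, whose transcript of 13934 bases is the longest. The part of this in the members' differences on the diet was not tested. Bulk libraries cannot tell fewer cells of a type from less RNA per cell.

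The 10 genes together took 4.43% ± 0.40 (SD, n = 3) of all counts in chow GFP livers. They took 5.01% ± 0.35 in NASH GFP, 5.71% ± 0.24 in Activin A, 4.73% ± 0.02 in scramble and 4.07% ± 0.03 in Gpnmb hairpin livers. These shares are of counts without TMM scaling. TMM factors ran from 0.81 to 0.91 in chow and from 1.03 to 1.10 in NASH GFP libraries, so shares and scaled levels need not move alike. Apoe alone ranked 2nd to 4th of all genes by CPM in every library. Per kilobase of transcript, the chow levels ran from 11260 ± 2026 CPM per kb for Apoe through 9433 ± 2986 for Apoa2 and 7519 ± 1838 for Apoa1 down to 30.4 ± 2.77 for Apoa4 and 4.79 ± 0.70 for Apoc2. Apob, which is long, stood at 536 ± 147 CPM per kb in chow livers, against 3313 ± 768 for Apoc1, 1581 ± 455 for Apoc3, 395 ± 82.6 for Apoa5 and 198 ± 56.2 for Apom. On the diet Apoa4 reached 952 ± 294 CPM per kb, above Apob at 525 ± 85.5.

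**Figure D1:**
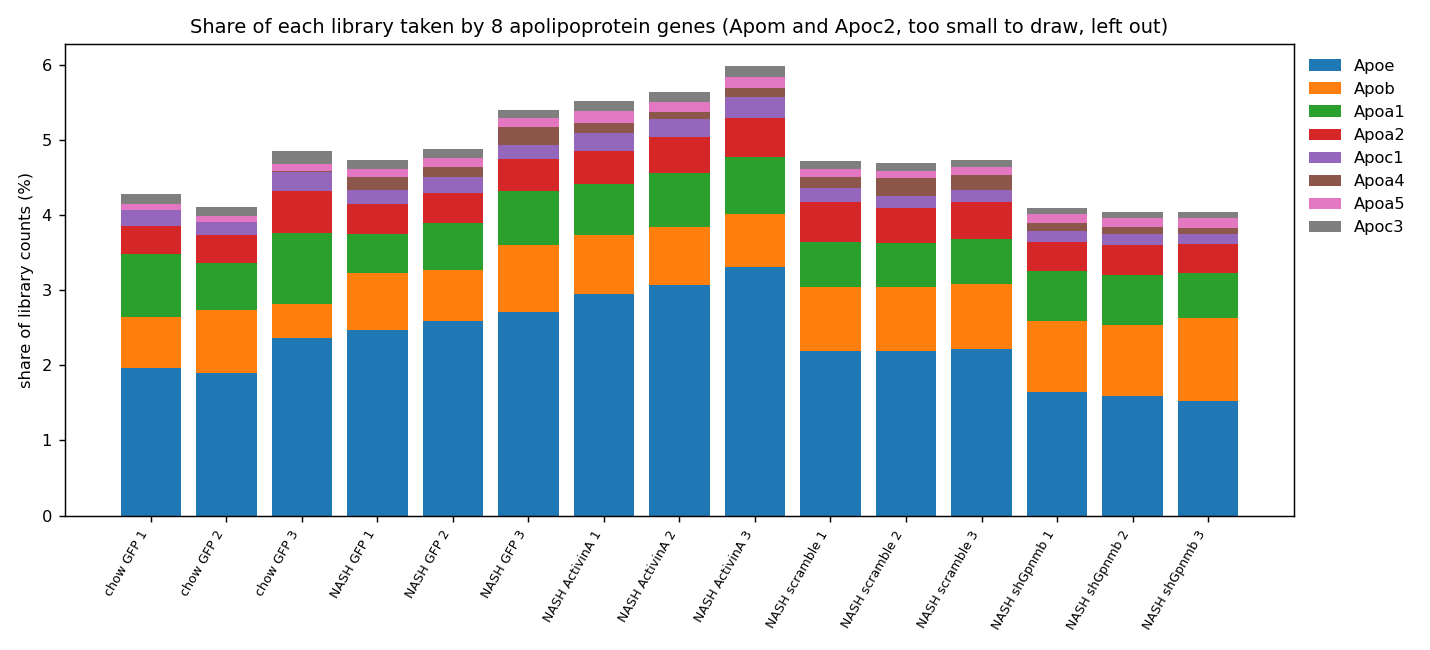
Stacked bars give the share of each library's counts (%, without TMM scaling) taken by 8 members, 1 bar per library. Apom and Apoc2 are too small to draw. The Activin A libraries carry the largest total (5.52% to 5.98%) and the hairpin libraries the smallest (4.06% to 4.10%), with Apoe the largest block in each.

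The diet comparison set NASH GFP livers against chow GFP livers. Apoa4 rose about 32.2-fold and Apom fell to 0.366 of its chow level, and the other 8 members did not pass the test. In counts, 1 of 10 members was higher and 1 lower at an edgeR adjusted p under 0.05, where 17% of 14388 genes were called (11.2% higher and 5.82% lower). Of these calls 65.7% were higher with TMM scaling and 86.8% with library size alone, which shifted the median of all genes to 0.24 (log2). The median log2 fold change of the members was -0.20, against -0.01 over all genes tested. Genes under 1000 bases, the class of Apoa2, Apoc1 and Apoc2, had a median of -0.25. Those over 8000 bases, the class of Apob, had 0.03. The part of gene length in the members' values was not tested.

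Apoa4 stood at 49.5, 56.7 and 59.3 CPM in the chow libraries and at 1625, 1254 and 2306 CPM in the NASH GFP libraries. Every NASH GFP library was far above every chow library. Its log2 fold change was 5.01 ± 0.26 (SE, n = 3 per group; edgeR adjusted p = 6.44e-06). Apom stood at 206.8, 140.8 and 254.1 CPM in chow and at 63.7, 62.5 and 87.8 CPM in NASH GFP livers, again with no overlap. Its log2 fold change was -1.45 ± 0.22 (edgeR adjusted p = 0.00194).

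The HDL proteins and Apoc3 were lower in all 3 NASH GFP libraries than in any chow library, without passing the test. Of all genes tested, 35.5% had non-overlapping groups. Apoa1 stood at 9124, 7111 and 11644 CPM in chow and 4716, 5972 and 6979 CPM in NASH GFP livers, a log2 difference of -0.62 ± 0.23 (edgeR adjusted p = 0.0935). Apoc3, an inhibitor of lipoprotein lipase, had -0.57 ± 0.21 (edgeR adjusted p = 0.0920) and Apoa2 -0.37 ± 0.22 (edgeR adjusted p = 0.302). Without chow library 3 the log2 difference was -0.10 for Apoa2, -0.34 for Apoc3 and -0.44 for Apoa1. By DESeq2 both Apoa1 and Apoc3 were called lower (adjusted p = 0.0169 and 0.0254), and the authors' deposited table gave 1 higher and 3 lower members at their adjusted p under 0.05.

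The particle scaffold and the remnant ligand did not pass the test. Apob stood at 7375, 9551 and 5469 CPM in chow and 6767, 6486 and 8675 CPM in NASH GFP livers, with overlapping libraries and a log2 difference of 0.00 ± 0.24. Apoe, at 21516, 21629 and 29075 CPM in chow and 22420, 24717 and 26266 CPM in NASH GFP livers, differed by 0.06 ± 0.20. Apoa5, an activator of lipase-mediated clearance, had 0.25 ± 0.19, and Apoc1 had -0.38 ± 0.20. Without chow library 3 these became 0.40 for Apoa5 and -0.21 for Apoc1, and Apob and Apoe became -0.19 and 0.20. Apoc2, the lipase cofactor, had only 55 to 151 counts a library. Its gene is overlapped on the same strand by the read-through gene Gm44805, and the sources used here do not say how shared reads were counted, so its values are uncertain.

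**Figure D2:**
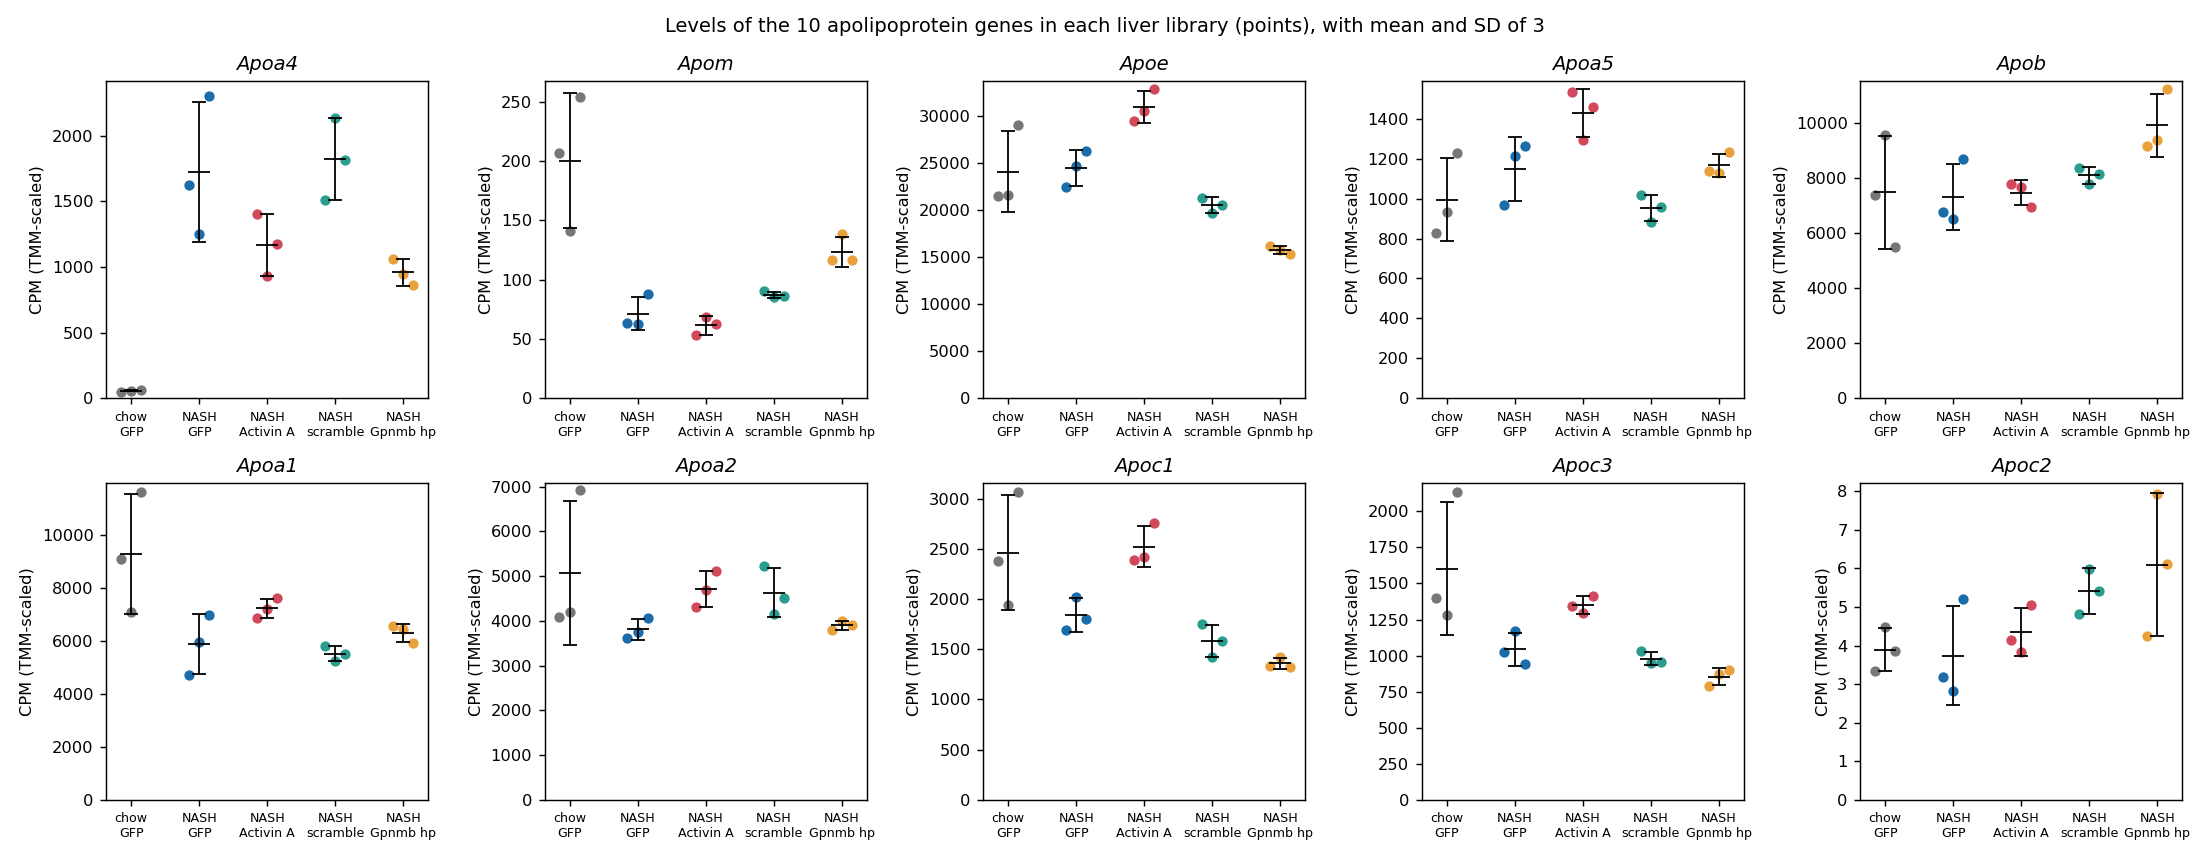
Each panel gives 1 gene's CPM (linear axis from 0) in every library (points), with the mean and SD of 3 as black bars; Gpnmb hp is the Gpnmb hairpin group. Apoa4 is near 50 CPM in chow and between 864 and 2306 CPM in all NASH libraries, Apom is highest in chow, and Apoe is highest under Activin A and lowest under the Gpnmb hairpin.

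The protein-coding genes on either side of the chromosome 9 cluster, Sik3 (log2 fold change -0.07 ± 0.15) and Zpr1 (-0.46 ± 0.18), did not pass the test on the diet. The unclassified transcript Gm47528 overlaps Apoa4 on the opposite strand. It rose from 0.73 ± 0.27 CPM to 10.8 ± 1.71 CPM (log2 fold change 3.93 ± 0.31). The counting's strand setting is not given, so the values of Gm47528 are uncertain. Its level was small beside that of Apoa4 in every NASH library, and under the hairpin it had 0.09 ± 0.16 where Apoa4 fell. Gm10680 also overlaps Apoa4, and Gm47544 overlaps Apoa5, both as antisense genes. By Pearson correlation of log2 CPM over the 15 libraries among 11787 genes, the genes most like Apoa4 were Cidec (r = 0.985), a lipid droplet fusion protein, 2010003K11Rik (0.981) and Osbpl3 (0.971). The libraries share 5 groups, so these values mostly describe group differences. Cidec rose by 4.76 ± 0.24 on the log2 scale on the diet. The genes most like Apom were Klkb1 (0.966), Serpinf2 (0.955) and Dcaf11 (0.953).

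**Figure D3:**
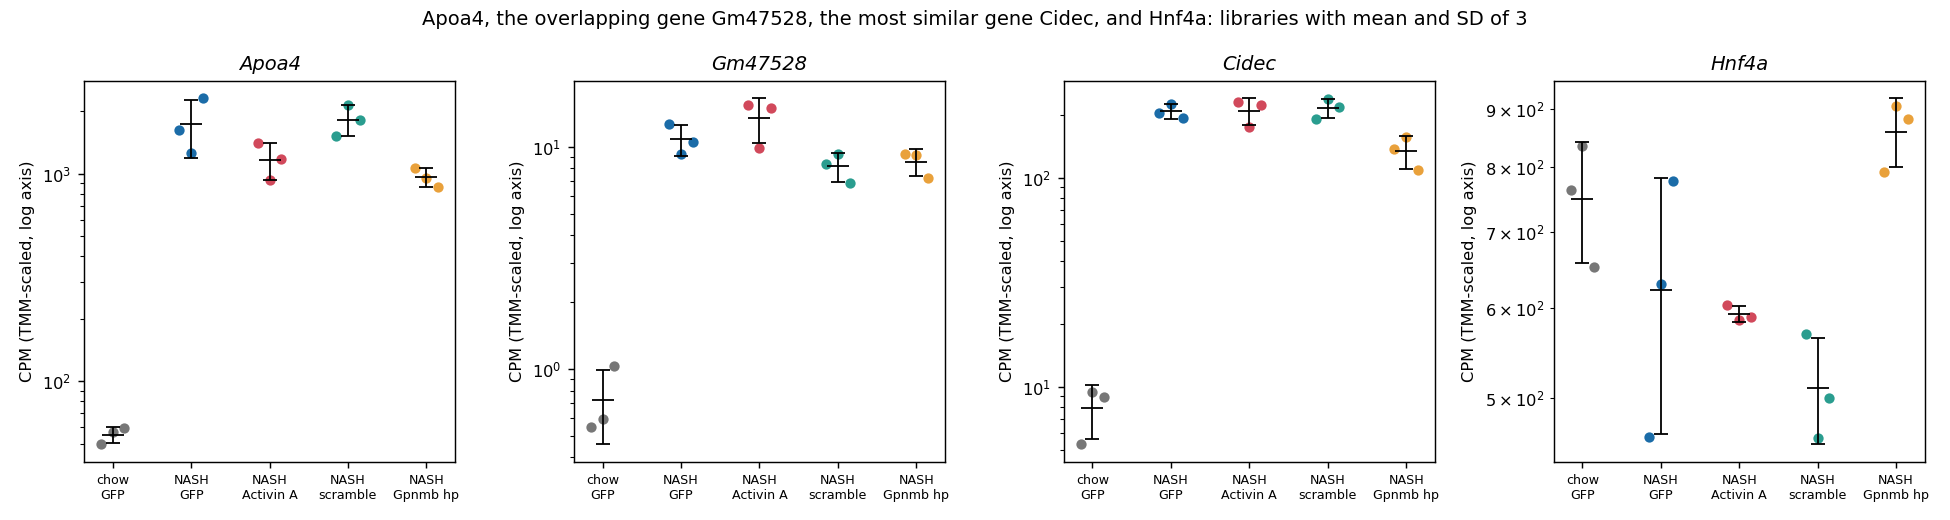
Log-scaled CPM per library (points), with mean and SD of 3, for Apoa4, the overlapping gene Gm47528, the most similar gene Cidec, and the nuclear receptor gene Hnf4a. Apoa4, Gm47528 and Cidec are lowest in chow; Gm47528 is similar in scramble and hairpin livers (8.18 and 8.58 CPM), where Apoa4 differs.

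Among the lists of genes that handle the particles, the counts on the diet are read beside the 17% of all genes called (11.2% higher and 5.82% lower). Among 13 receptors and regulators tested, 4 rose and none fell, led by the VLDL receptor gene Vldlr (3.88 ± 0.35 on the log2 scale), the scavenger receptor gene Cd36 (2.79 ± 0.30) and Msr1 (1.39 ± 0.22), a macrophage scavenger receptor. Of 14 lipases and regulators 3 rose and 3 fell, with the lipoprotein lipase gene Lpl at 2.11 ± 0.18, Pnpla2 at 0.87 ± 0.18 and Aadac at -0.76 ± 0.17. Of 17 genes of particle assembly, secretion and Apob editing, 0 were called by edgeR, 1 by DESeq2 and 0 by limma-voom, with 4 under 0.05 before adjustment. The smallest p was that of Pla2g12b (-0.54 ± 0.19). Scaled by library size alone, 5 of these 17 rose, where 3076 of 14388 genes were called. In one fit of all 15 libraries 1 rose and 3 fell, where 4500 of 15665 genes were called.

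Other apolipoproteins fell in 4 of 9 cases, including Apol7a (-0.97 ± 0.18), Apoh (-0.77 ± 0.19) and Apof (-0.66 ± 0.19). In HDL formation 2 of 9 rose and 1 fell: the cholesterol exporter gene Abcg1 at 1.76 ± 0.20, Pctp at 0.75 ± 0.20 and the paraoxonase gene Pon1 at -0.65 ± 0.18. Among 24 transcription regulators 2 rose and 2 fell, with Pparg at 1.17 ± 0.24, Mlxipl at -0.73 ± 0.19 and Nr5a2 at -0.70 ± 0.16. Of 10 targets of CREB3L3, a hepatic transcription factor, 6 rose, among them Apoa4 itself, Cidec and the hormone gene Fgf21 (3.49 ± 0.45), while Creb3l3 stood at -0.24 ± 0.19 (edgeR adjusted p = 0.439). That list also holds the members Apoa1, Apoa5 and Apoc2, which were not called on the diet, so its counts partly repeat those of the members.

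Cell type markers moved on the diet too. The summed macrophage markers ranged from 244 to 283 CPM in chow and from 721 to 854 CPM in NASH GFP libraries, and 10 of 10 rose. The summed hepatocyte markers ranged from 88754 to 118037 CPM in chow and from 58270 to 70582 CPM in NASH GFP, and 5 of 9 fell. Stellate cell markers rose in 7 of 8 cases (summed range 231 to 270 CPM in chow and 445 to 662 CPM in NASH GFP), and endothelial markers in 3 of 8. Of 3 adipocyte markers tested, Fabp4 and Cfd rose and Car3 fell, while the list's sum, most of it Car3, ranged from 4169 to 5724 CPM in chow and from 1706 to 2188 CPM in NASH GFP. Among intestinal markers Fabp2 rose 2.82-fold and Slc5a1 3.41-fold. The part of these shifts in the members' differences was not tested.

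The Activin A comparison set NASH Activin A livers against NASH GFP livers. No member passed the test. Of 10, edgeR called 0, DESeq2 4 and limma-voom 0, and 6 had an edgeR p under 0.05 before adjustment, 5 of them higher. Of all 14598 genes edgeR called 5.52% (1.66% higher and 3.86% lower), DESeq2 called 1258 genes and limma-voom 675. Genes under 0.05 before adjustment were not counted over all genes. The log2 difference was positive for 8 of 10 members, with a median of 0.29 against 0.00 over all genes. In 5 of 10 members the 3 Activin A libraries lay above every GFP library, and in none below, where libraries of 26.4% of all genes did not overlap.

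Apoe stood at 29445, 30577 and 32840 CPM under Activin A, above 22420, 24717 and 26266 CPM under GFP, a log2 difference of 0.32 ± 0.11 (edgeR adjusted p = 0.126). Its chromosome 7 neighbour Apoc1, at 2389, 2418 and 2762 CPM against 1689, 2023 and 1801 CPM, came closest to the threshold at 0.44 ± 0.11 (edgeR adjusted p = 0.0532). Apoc3 had 0.36 ± 0.11 (edgeR adjusted p = 0.105), Apoa2 0.29 ± 0.11 (edgeR adjusted p = 0.165) and Apoa5 0.30 ± 0.13 (edgeR adjusted p = 0.227), all with separate libraries. The members that DESeq2 called were Apoc1, Apoc3, Apoe and, in the other direction, Apoa4.

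Apoa4, at 1404, 928 and 1175 CPM under Activin A, overlapped the GFP libraries at the low end (-0.58 ± 0.22, edgeR adjusted p = 0.172). Without NASH GFP library 3 its difference was -0.32. Apoa1 had 0.28 ± 0.14, Apob 0.01 ± 0.13, Apoc2 0.21 ± 0.28 and Apom -0.23 ± 0.15, with overlapping libraries. The authors' deposited table gave 3 higher members and 1 lower at their adjusted p under 0.05. Without NASH GFP library 3, which held the highest levels of 8 of the 10 members in its group, edgeR called 4 members higher (Apoa1, Apoa2, Apoc1 and Apoe). In that fit 1435 genes were called, 37.3% of them higher, against 806 with all 6 libraries. Without NASH GFP library 2 edgeR called Apoc1 only, where 627 genes were called.

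Around the members, the editing enzyme gene Apobec1, which shortens Apob mRNA's reading frame, fell by 0.74 ± 0.12 on the log2 scale (edgeR adjusted p = 0.00795). It was the 1 call among 17 genes of particle assembly, secretion and Apob editing. The interferon-inducible Apol9a (-2.17 ± 0.21) and Apol9b (-1.34 ± 0.21) were the 2 called of 9 other apolipoproteins. Msr1 (-1.05 ± 0.18) and Cd36 (-0.69 ± 0.12) fell among 13 receptors. Ces1d, a carboxylesterase that mobilises triglyceride for VLDL, rose by 0.83 ± 0.13, the lipogenic regulator gene Srebf1 by 1.19 ± 0.24 and Fgf21 by 0.71 ± 0.15, each the 1 call of its list (14, 24 and 10 genes tested). In HDL formation 0 of 9 were called by edgeR, by DESeq2 or by limma-voom (4 under 0.05 before adjustment), with Pltp at -0.35 ± 0.12. Under Activin A 9 of 10 macrophage markers fell (summed range 297 to 348 CPM), and 4 of 8 stellate cell markers fell (445 to 662 CPM under GFP, 424 to 449 CPM under Activin A). The summed hepatocyte markers ranged from 73832 to 76315 CPM under Activin A, above every GFP library (58270 to 70582 CPM), with 1 of 9 called higher and 1 lower. The part of these shifts in the members' values was not tested.

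The Gpnmb hairpin was compared with the scrambled hairpin on the NASH diet. Apoa4 and Apoe fell and Apom, Apoa5 and Apob rose. The median log2 fold change of the members was 0.01, against 0.00 over all genes. In counts 3 of 10 were higher and 2 lower, where 24.3% of 14845 genes were called (12.2% higher and 12% lower). With all 15 libraries in one fit, where 1880 of 15665 genes were called, only Apoa4 remained called. The others had edgeR adjusted p = 0.0524 (Apom), 0.0789 (Apoe), 0.156 (Apoa5) and 0.246 (Apob). Scaled by library size alone, 2 members were higher and 5 lower, while 29.0% of all calls were higher against 50.3% with TMM.

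Apoa4 stood at 1515, 2139 and 1815 CPM in scramble and at 1065, 949 and 864 CPM in hairpin livers, which did not overlap, and the log2 fold change was -0.90 ± 0.12 (edgeR adjusted p = 0.000757). The hairpin level was still above every chow library. Apom stood at 90.0, 85.0 and 86.1 CPM in scramble and at 116.3, 138.1 and 116.3 CPM in hairpin livers, a log2 fold change of 0.53 ± 0.08 (edgeR adjusted p = 0.00115). The hairpin libraries lay between the other NASH libraries and the chow libraries. On the chromosome 9 cluster the neighbour Apoa5 moved the other way from Apoa4. It rose from 1017, 885 and 958 CPM to 1139, 1128 and 1235 CPM (0.32 ± 0.08, edgeR adjusted p = 0.0168). Sik3, beside the cluster, rose by 0.33 ± 0.07.

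Apoe stood at 21326, 19702 and 20567 CPM in scramble and 16121, 15698 and 15276 CPM in hairpin livers (log2 fold change -0.36 ± 0.09, edgeR adjusted p = 0.0151), with the hairpin libraries below all 12 others. Apob stood at 8359, 7761 and 8128 CPM in scramble and 9144, 9354 and 11218 CPM in hairpin livers (0.32 ± 0.10, edgeR adjusted p = 0.0438), with no overlap. Apob was not called without hairpin library 2 or 3 or without scramble library 2 or 3 (edgeR adjusted p = 0.0567 to 0.162). Nor was it called with library size only or with a replicate block (edgeR adjusted p = 0.0707 and 0.0792). It passed in 6 of 13 alternatives. Apoa5 lost its call without scramble library 2 or 3 (0.0592 and 0.0862) and Apoe without scramble library 3 (0.100).

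Of the remaining members, Apoa1 had 0.22 ± 0.09 (edgeR adjusted p = 0.0957), Apoa2 -0.23 ± 0.10 (edgeR adjusted p = 0.119), and Apoc3 -0.17 ± 0.08 (edgeR adjusted p = 0.140), all with separate libraries, where libraries of 40.6% of all genes did not overlap. Apoc1 had -0.19 ± 0.09 and Apoc2 0.20 ± 0.22, with overlapping libraries. DESeq2 called Apoa1 and Apoa2 as well. The authors' deposited table gave 4 higher members and 3 lower. The genes most like Apoe over the 15 libraries were Aldh2 (r = 0.956), Ube2j1 (0.936) and Timm8a1 (0.927). Those most like Apob were Phc3 (0.968), Birc6 (0.965) and Tmem131 (0.945), and those most like Apoa5 were Mrpl45 (0.890), Dnaja2 (0.890) and Bnip3 (0.882).

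**Figure D4:**
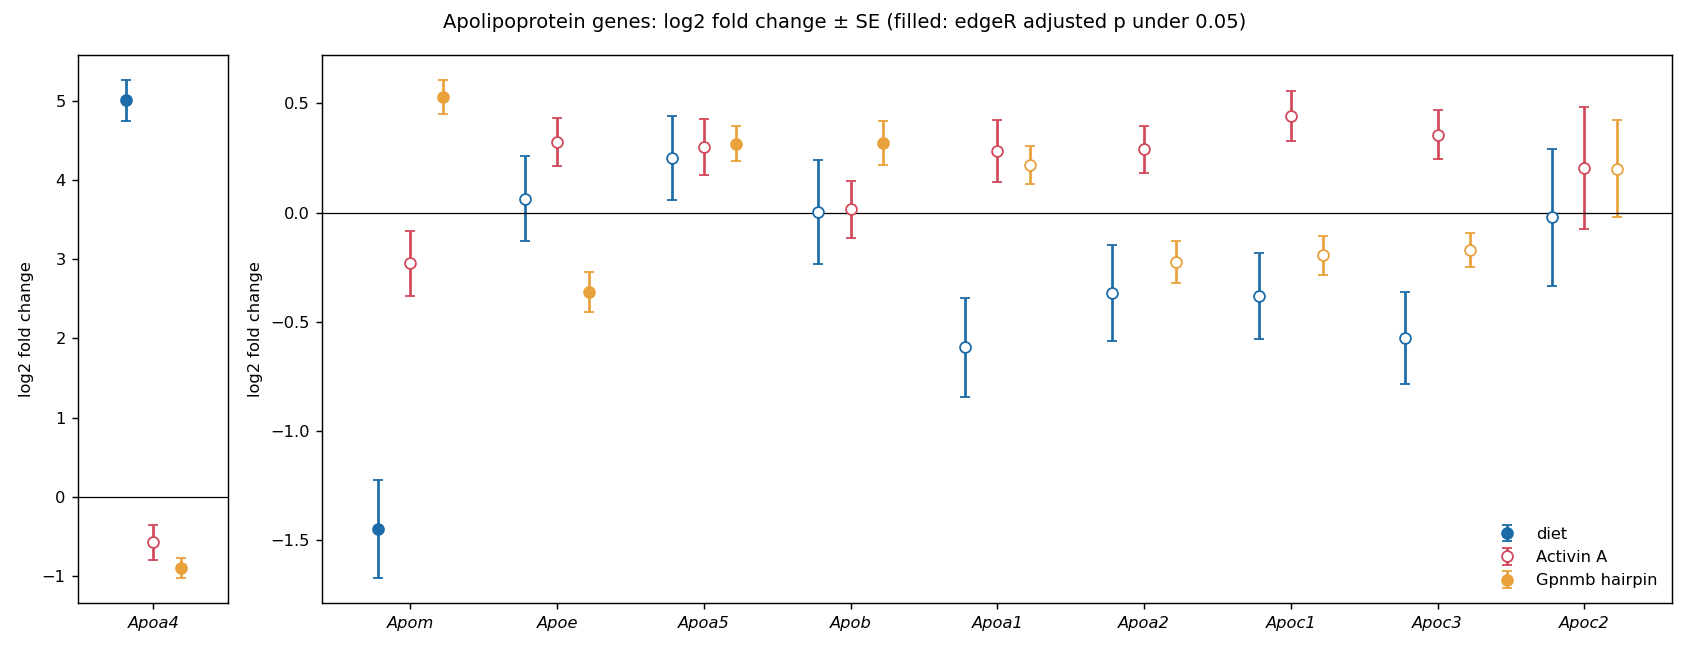
Points are log2 fold changes with SE bars in the diet, Activin A and Gpnmb hairpin comparisons, filled where the edgeR adjusted p was under 0.05; Apoa4 has an axis of its own. Apoa4 and Apom pass on the diet, no member under Activin A, and Apoa4, Apom, Apoe, Apoa5 and Apob under the hairpin.

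In the list of particle assembly, secretion and Apob editing, 7 of 17 genes rose and 1 fell under the hairpin. With library size alone 4 rose and 4 fell, where 3470 of 14845 genes were called. With all 15 libraries in one fit 5 rose and 1 fell, where 1880 of 15665 genes were called. The list was led by Tm6sf2 (0.68 ± 0.09 on the log2 scale) and Mttp (0.45 ± 0.07), which lipidate the nascent particle, and the vesicle coat gene Sec23a (0.43 ± 0.07). Apobec1, the 1 gene that fell, had -0.39 ± 0.09 and is named after its value was seen. Of 13 receptors and regulators 6 fell, among them Msr1 (-0.95 ± 0.10), Cd36 (-0.62 ± 0.07) and Vldlr (-1.25 ± 0.16). Of 14 lipases and regulators 3 rose and 3 fell, with Ces1g at -0.75 ± 0.09 and the lipase inhibitor gene Angptl4 at 0.61 ± 0.09. Sel1l, needed for lipase folding, was at 0.43 ± 0.07.

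List counts from the fit of the 6 scramble and hairpin libraries stand beside 24.3% of all genes called (12.2% higher and 12% lower). In HDL formation 2 of 9 rose and 2 fell, with Pon3 at 0.29 ± 0.07, Pctp at -0.27 ± 0.07 and Abcg1 at -0.55 ± 0.14. Of 24 transcription regulators 7 rose and 7 fell, with Rora at 0.80 ± 0.09, the hepatocyte nuclear receptor gene Hnf4a at 0.78 ± 0.09 and Cebpa at -0.47 ± 0.07. Of 10 CREB3L3 targets 3 rose, the member Apoa5 among them, and 2 fell, the member Apoa4 among them. Cidec fell by 0.66 ± 0.12 and the PPARA target Cyp4a10 rose by 0.93 ± 0.14. Of 9 other apolipoproteins 2 fell, Apol7a (-1.11 ± 0.07) and Apol9a (-0.55 ± 0.13). In one fit of all 15 libraries 1880 of 15665 genes were called under the hairpin. Among them were 2 receptors, 3 lipase genes, 1 HDL gene, 9 regulators, 2 CREB3L3 targets and 1 other apolipoprotein. Macrophage markers fell in 7 of 10 cases (summed range 614 to 849 CPM in scramble and 363 to 440 CPM in hairpin livers). Summed hepatocyte markers ranged from 59844 to 70626 and from 71013 to 74974 CPM, and 6 of 8 stellate cell and 3 of 8 endothelial markers fell. The part of these shifts in the results was not tested.

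The 2 NASH controls, scramble and GFP, were compared in one fit of all 15 libraries. No member was called (0 by edgeR, by DESeq2 or by limma-voom; 1 under 0.05 before adjustment), where edgeR called 0.741% of 15665 genes (0.172% higher and 0.568% lower). The smallest p belonged to Apoe (-0.28 ± 0.13, edgeR adjusted p = 0.290), which was lower in every scramble library than in any GFP library. Apoa2 was the other member with separate libraries, in the other direction. It stood at 4161 to 5223 CPM in scramble and 3610 to 4058 CPM in GFP livers (edgeR adjusted p = 0.477). The libraries of these 2 groups were separate for 24.7% of genes. Among other apolipoproteins, Apol7a (0.64 ± 0.14) was called higher.

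The difference between the Activin A effect and the hairpin effect was tested as a contrast of the 4 NASH groups in that fit, in which 4.04% of 15665 genes were called (1.9% higher and 2.14% lower). Apoe was the 1 member called, with 0.69 ± 0.18 on the log2 scale (edgeR adjusted p = 0.0418), from differences of 0.32 under Activin A and -0.36 under the hairpin, each against its own control. That call was lost when any 1 of the 12 NASH libraries was left out, other than NASH GFP library 3 (edgeR adjusted p = 0.0623 to 0.129). Apoc1 (0.63 ± 0.20, edgeR adjusted p = 0.0974) and Apom (-0.77 ± 0.24, edgeR adjusted p = 0.0972) did not pass. In the lists around them, 3 of 24 regulators had a higher and 3 a lower effect under Activin A, among them Srebf1 (2.04 ± 0.32), Ppargc1a (-1.56 ± 0.26) and Esrra (0.66 ± 0.15). Of the list of assembly, secretion and Apob editing only Tm6sf2 (-0.78 ± 0.15) was called. Of the lipases Angptl8 (2.52 ± 0.47) and Ces1g (0.73 ± 0.19) were called, and of the CREB3L3 targets Cyp4a10 (-2.71 ± 0.69). Apol9a (-1.62 ± 0.27), Apol9b (-1.22 ± 0.26) and Apol7a (0.83 ± 0.20) were called among other apolipoproteins.

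Ordered by mean CPM, the groups ranked differently for each member. For Apoe the order was Activin A, NASH GFP, chow, scramble and hairpin, with NASH GFP and chow overlapping. For Apom it was chow, hairpin, scramble, NASH GFP and Activin A, where scramble overlapped NASH GFP and NASH GFP overlapped Activin A. For Apoa4 it was scramble, NASH GFP, Activin A, hairpin and chow, where neighbouring NASH groups overlapped and chow stood apart. For Apob only the highest group, the hairpin, was separate from the next. For Apoa5 only the highest, Activin A, was. Apoc1 overlapped between every pair of neighbouring groups, as did Apoc2.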

How the data were processed

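Per the labels' protocols, liver RNA (RNeasy kit) entered a stranded mRNA library kit from Illumina. The deposited tables, 1 per comparison, gave the authors' unnormalized counts per gene and library, used for every test. Per the file headers they also gave the authors' log2 fold changes and their p-values, raw and adjusted. Further deposited columns held gene length and position. Per the submitters' processing notes the build was GRCm38 (mm10). Aligner, counter, strand setting and annotation: not given in the sources used here. Of the deposited columns, 36 of per-sample normalized values were not used. The NASH GFP counts were identical in both tables that hold them (0 of 23148 genes differed).

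Each comparison was fitted on its 6 libraries with edgeR 4.0.16 (R 4.3.3): filterByExpr (minimum count 10), TMM scaling, quasi-likelihood test, two-sided, Benjamini-Hochberg adjustment over all genes, calls at 0.05. Scramble against GFP and the difference of effects used all 15 libraries of the joined tables. The SE is the log2 fold change divided by the square root of F. DESeq2 1.42.0, limma-voom (limma 3.58.1), other scalings, no filter, a replicate block and left-out libraries were alternatives, and the test was tried on simulated data. No library was a copy of another of its group: chi-square divided by its degrees of freedom was 5.19 or more for each pair. The members and gene lists were chosen with earlier results of these data known. Named genes are all members, up to 3 called genes of each list with the smallest p (or, with no call, its lowest-p gene), and the 3 genes most correlated with each called member among genes whose mean log2 CPM reached 1. Neighbours (within 50 kb) and promoter motifs were chosen after the data were seen.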

Additional observations from a re-analysis of the deposited data

How the results depend on the processing

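Over the alternatives run, the Apoa4 and Apom calls on the diet (4.75 to 5.26 and -1.67 to -1.20 on the log2 scale) and the Apoa4 call under the hairpin (-1.02 to -0.78) held in 13 of 13. The number of members called on the diet was 4 by DESeq2, 3 with no filter and 5 with all 15 libraries in one fit. Under Activin A it was 4 by DESeq2 and 3 with no filter, and from 0 to 4 with 1 library left out. Under the hairpin (5) it was 7 by DESeq2, 7 with library size only, 6 with no filter, 1 with all 15 libraries in one fit and 2 to 5 with 1 library left out. For the difference of effects it was 2 with library size only, 2 by DESeq2, 3 with no filter, 5 with only the 12 NASH libraries and 0 to 1 with 1 library left out. Over all genes the count of calls moved too, and the alternatives given here are not all that were run. On the diet (2445) they gave 4500 with all 15 libraries, 1597 with the replicate block and 1355 to 2233 with 1 library left out. Under Activin A (806) they gave 1258 by DESeq2, 1253 with no filter and 248 to 1435 with 1 library left out. Under the hairpin (3601) they gave 1880 with all 15 libraries and 1923 to 3496. In scramble against GFP (116) they gave 555 by DESeq2, 634 with no filter, 77 with library size only, 68 with the replicate block, 49 in a fit of the 6 libraries and 13 to 863. For the difference of effects (633) they gave 984 by DESeq2, 1051 with the NASH libraries only and 367 to 710. The causes were not tested.

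The replicate numbers did not pair the libraries: correlations of same-numbered deviations were -0.15 to -0.04 (diet), -0.12 to 0.04 (Activin A) and -0.07 to 0.00 (hairpin). With the replicate block the members called were 2, 0, 4, 0 and 0 in the 5 comparisons in the order given, and over all genes 1597 were called on the diet against 2445. With library size only, all genes tested had a median of 0.24 (log2) on the diet and -0.11 under the hairpin, 86.8% of diet calls were higher against 65.7% with TMM, and no called member changed direction.

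Signs turned only for members that were not called. On the diet Apoc2 was at 0.23 with library size only, and Apob at -0.022 (DESeq2 size factors, and DESeq2) and -0.030 (all 15 libraries). Leaving out 1 library gave -0.19 to 0.21 for Apob, -0.041 to 0.20 for Apoe and -0.33 to 0.15 for Apoc2. Under Activin A Apob was at -0.048 with library size only and -0.058 to 0.16 with 1 library left out. Apoc2 under the hairpin ran from -0.032 to 0.40. In scramble against GFP, leaving out 1 library gave -0.14 to 0.31 for Apoa4 and -0.25 to 0.016 for Apoa1. In the difference of effects Apoa5 was at 0.030 with library size only and 0.024 with no filter, and leaving out 1 library gave -0.12 to 0.053 for Apoa5, -0.069 to 0.20 for Apoa1 and -0.19 to 0.31 for Apoc2. Few counts limit Apoc2 (55 to 151 a library).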
